A study of Mus musculus with 6 samples.

Results

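The collagen chains are the genes whose symbol in the deposited table has the form Col, a number, a and a number, from Col1a1 to Col28a1. This rule found 39 chains among the 14865 listed genes, and it used no measured value. RNA from the cochlear ducts of C57BL/6 mice at postnatal day 8 (P8) was sequenced in 3 Gfi1+/+ and 3 Gfi1Cre/+ libraries, and the labels name no agent. In Gfi1Cre/+ mice the coding sequence of Cre recombinase was knocked into 1 copy of Gfi1, which encodes a transcription factor of inner ear hair cells and blood cells, while Gfi1+/+ mice carried 2 intact copies, so that Cre was driven by the Gfi1 locus. A Gfi1+/+ library held RNA from the 2 cochleae of 1 mouse, whereas a Gfi1Cre/+ library pooled the 6 cochleae of 3 mice, so that each Gfi1Cre/+ value averages over animals and each Gfi1+/+ value does not. The values are normalized reads, which are read counts divided by 1 size factor per library, and levels of different genes are compared only as normalized reads per kilobase of annotated exon. Values of single libraries are given in the order of replicates 1, 2 and 3.

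Collagens are secreted proteins whose chains wind around each other in a triple helix, and the chains of a trimer are often products of different genes. Fibrillar collagens form the banded fibrils of bone, ligament and the loose tissue around the cochlear duct, while type IV collagen forms the sheet at the heart of every basement membrane. Types II, IX and XI form the thin fibrils of cartilage and also of the tectorial membrane, the gel that lies over the hair cells. Their chains are grouped here as the tectorial and cartilage class, so the fibrillar class below leaves out types II and XI. Inherited defects in genes for type II, IX and XI chains and for the Col4a3, Col4a4 and Col4a5 chains are known causes of hearing loss in humans.

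The type IV genes lie in head-to-head pairs, in which the chains transcribed in opposite directions share the DNA between their start sites. The stretches that each pair shares or has just upstream are shown here because the ratio of the paired chains is measured further on. All are from RefSeq's promoter windows on GRCm38, and are written 5′ to 3′. Capitals mark the CCAAT box where it occurs, on either strand. They also mark the GC box, which is searched as GGGCGG and reads as its reverse complement on the opposite strand. The first exons of Col4a1 (minus strand) and Col4a2 (plus strand) overlapped by 22 bases at chr8:11312805-11312826, given on the plus strand, and a GGGCGG lay within the overlap. Between the starts of Col4a4 (minus strand) and Col4a3 (plus strand) lay 71 bases at chr1:82586850-82586920, given on the plus strand, with neither motif. The starts of Col4a6 (minus strand) and Col4a5 (plus strand) were farther apart, at 1308 bases. For this pair the 250 bases before Col4a6 at chrX:141474077-141474326 are given on the minus strand and the 216 bases before Col4a5 at chrX:141475169-141475384 on the plus strand.
Col4a1-Col4a2 overlap: agtgcgcGGGCGGcgtctccaa
Col4a4-Col4a3 gap: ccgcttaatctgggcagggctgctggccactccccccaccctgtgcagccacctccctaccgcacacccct
upstream of Col4a6: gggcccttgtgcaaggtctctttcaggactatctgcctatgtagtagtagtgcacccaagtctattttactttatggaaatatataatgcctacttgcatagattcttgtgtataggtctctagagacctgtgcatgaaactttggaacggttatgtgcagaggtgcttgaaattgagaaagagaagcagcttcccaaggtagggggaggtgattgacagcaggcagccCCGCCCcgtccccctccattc
upstream of Col4a5: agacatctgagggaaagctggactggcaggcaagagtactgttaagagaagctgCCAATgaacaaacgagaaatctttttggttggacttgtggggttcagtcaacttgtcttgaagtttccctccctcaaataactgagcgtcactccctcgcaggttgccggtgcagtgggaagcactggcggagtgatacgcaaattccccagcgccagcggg

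Between 13603908 and 16136022 reads were counted on genes in the Gfi1+/+ libraries and between 17939607 and 19359753 in the Gfi1Cre/+ libraries. Gfi1 itself had 147, 160 and 152 normalized reads in the Gfi1+/+ libraries and 136, 130 and 139 in the Gfi1Cre/+ libraries. Its Gfi1Cre/+ libraries all lay below its Gfi1+/+ libraries, with a log2 fold change of -0.18 (standard error 0.0975) and an adjusted p = 0.999 in limma's test. How much RNA of the knock-in allele was counted on Gfi1 was not analysed here. The 4 Y-linked genes checked summed to at most 2.10 normalized reads in a Gfi1+/+ library and to between 794 and 1621 in a Gfi1Cre/+ library, so that sex and genotype cannot be told apart in any comparison below. Gfi1+/+ replicate 1 stood apart from the other libraries in its nerve transcripts. The 12 neuron markers, none of them at 0 in any library, summed to 10352 normalized reads there, to 3793 and 2345 in the other Gfi1+/+ libraries and to between 1875 and 2721 in the Gfi1Cre/+ libraries. The 8 Schwann cell markers, also none at 0, summed to 38100 in Gfi1+/+ replicate 1 and to between 16697 and 26050 in the other 5 libraries. Markers of the cochlear duct were read in every library. Tectb, a tectorial membrane glycoprotein, had between 35886 and 58321 normalized reads. Coch, a protein of the spiral ligament fibrocytes, had between 9245 and 16519. Cartilage and bone markers were read as well. Of 11 cartilage markers 9 were listed, with a sum of 44613 to 47542 normalized reads, and the 13 bone markers summed to between 26945 and 56297. How the collagen reads divide between these tissues was not tested. Of 11 skeletal muscle markers, 4 were listed, with a sum of 63.5 to 101 normalized reads. The libraries are bulk tissue, in which a smaller number of cells of 1 type and less RNA in each of them cannot be told apart.

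Type II, IX and XI transcripts dominated the collagens of the cochlear duct in both genotypes. The 39 chains took 5.02%, 5.85% and 6.32% of all normalized reads in Gfi1+/+ and 5.93%, 5.94% and 6.07% in Gfi1Cre/+. The means were 5.73% ± 0.656 (SD, n = 3) and 5.98% ± 0.0773, and the 3 Gfi1Cre/+ libraries lay inside the range of the Gfi1+/+ libraries. Per kilobase of exon, the 6 chains of the tectorial and cartilage class made up 83.5% ± 0.792 of the summed collagen level (SD over 6 libraries), the 8 fibrillar chains 9.38% ± 0.471, the 8 basement membrane chains 3.76% ± 0.201 and the other 17 chains 3.38% ± 0.183. With the longest annotated transcript as the gene length in place of all exons, the shares were 80.9%, 12.7%, 2.96% and 3.37%. The tectorial and cartilage class was first and the fibrillar class next with either length, while basement membrane and other chains changed places. In every library the tectorial and cartilage class held between 82.4% and 84.4% of the summed level, with the Gfi1+/+ and Gfi1Cre/+ libraries overlapping.

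**Figure D1:**
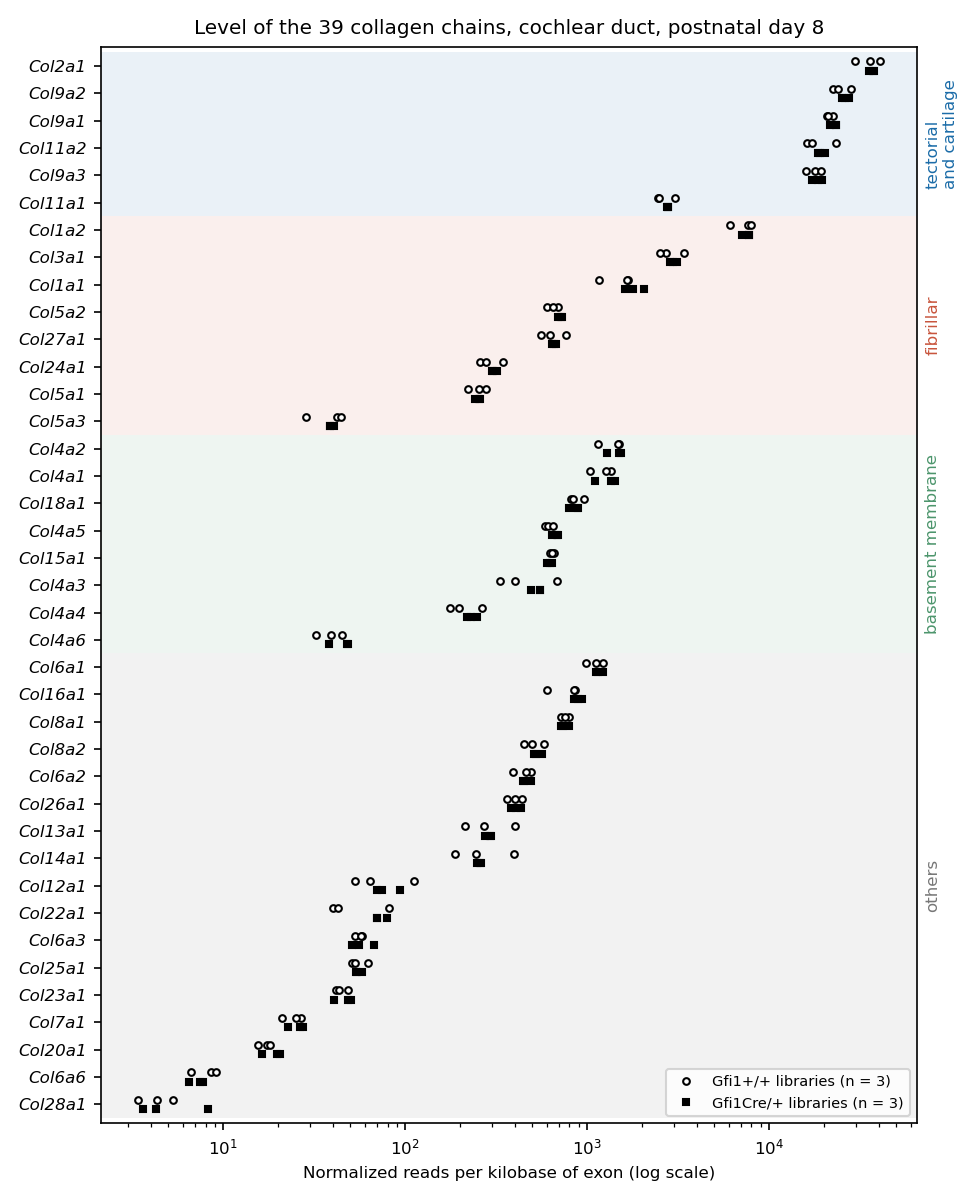
Level of each of the 39 collagen chains in normalized reads per kilobase of exon (log axis), grouped by class and ordered by mean level, with an open circle per Gfi1+/+ library and a filled square per Gfi1Cre/+ library (3 each). Levels span from a mean of 4.86 for Col28a1 to 36128 for Col2a1, and in each of the 39 chains the circles and squares overlap.

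The most abundant collagen transcript was that of Col2a1, whose product forms the homotrimer of type II collagen, the main fibril of cartilage and of the tectorial membrane. Col2a1 (ENSMUSG00000022483; chr15:97975602-98004695 of GRCm38) had 274391, 332150 and 375917 normalized reads in the Gfi1+/+ libraries and 328077, 342586 and 350492 in the Gfi1Cre/+ libraries. Gfi1+/+ replicate 1 was the lowest library and Gfi1+/+ replicate 3 the highest, so that the 3 Gfi1Cre/+ libraries lay between them. Its level was 35431 ± 5509 normalized reads per kilobase in Gfi1+/+ and 36826 ± 1230 in Gfi1Cre/+ (SD, n = 3 each), rank 8 among the genes with a length. The log2 fold change was 0.07 (standard error 0.161; 95% interval -0.30 to 0.43) with an adjusted p = 0.999 in limma's test.

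Type IX collagen, which coats type II fibrils, is a trimer of the Col9a1, Col9a2 and Col9a3 chains. All 3 ranked among the 30 genes with the highest level per kilobase, together with Col2a1 and Col11a2. Col9a1 had 105719, 114367 and 106567 normalized reads in Gfi1+/+ and 118299, 109350 and 118524 in Gfi1Cre/+. For Col9a1, 2 Gfi1Cre/+ libraries were above every Gfi1+/+ library and Gfi1Cre/+ replicate 2 lay within the Gfi1+/+ range. Col9a2 had 69077, 73875 and 87385 normalized reads in the Gfi1+/+ libraries and 81088, 77906 and 85609 in the Gfi1Cre/+ libraries. Its highest and its lowest library were both Gfi1+/+. Col9a3 had 61452, 69213 and 74358 normalized reads in Gfi1+/+ and 75378, 66362 and 71851 in Gfi1Cre/+, and its genotypes overlapped as well. Of the bases in annotated exons of Col9a3, 6.07% (234 bases) also lie in exons of another gene, and the strand setting of the counting was not given in the sources used here. Mean levels over the 6 libraries were 22127 normalized reads per kilobase for Col9a1, 25576 for Col9a2 and 18108 for Col9a3. The log2 fold changes of the 3 chains were 0.08, 0.09 and 0.06, with standard errors of 0.101 to 0.111.

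Type XI collagen nucleates the thin fibrils and draws on Col11a1, Col11a2 and a product of Col2a1. Col11a2 (chr17:34039437-34066685 of GRCm38) had 111146, 117826 and 159921 normalized reads in the Gfi1+/+ libraries and 140282, 128143 and 130596 in the Gfi1Cre/+ libraries. Gfi1+/+ replicate 3 was the highest library by a wide margin and the other Gfi1+/+ libraries were the lowest pair. Col11a1 had 31203, 31619 and 38567 normalized reads in Gfi1+/+ and 35029, 35384 and 35276 in Gfi1Cre/+. The Gfi1Cre/+ libraries of Col11a1 lay close together and between the Gfi1+/+ libraries. The log2 fold changes were 0.05 (standard error 0.149) for Col11a2 and 0.07 (standard error 0.0945) for Col11a1. Per kilobase, Col11a2 had a mean of 19104 over the 6 libraries against 2708 for Col11a1, and their ratio is given below with those of the other partner chains.

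Within the fibrillar class, which leaves out types II and XI, the type I and III transcripts led. Type I collagen, the main protein of bone and ligament, is built from Col1a1 and Col1a2 chains. Col1a2 (ENSMUSG00000029661; chr6:4504814-4541544 of GRCm38) had 75861, 95523 and 99298 normalized reads in the Gfi1+/+ libraries and 88584, 95785 and 96822 in the Gfi1Cre/+ libraries. Its Gfi1Cre/+ libraries lay inside the Gfi1+/+ range, in which replicate 1 was lowest and replicate 3 highest. Col1a1 (ENSMUSG00000001506; chr11:94936224-94953042 of GRCm38) had 7620, 10949 and 10831 normalized reads in Gfi1+/+ and 10622, 13472 and 11718 in Gfi1Cre/+. Gfi1+/+ replicate 1 was the lowest of the 6 and Gfi1Cre/+ replicate 2 the highest, while Gfi1Cre/+ replicate 1 was below the 2 upper Gfi1+/+ libraries. The log2 fold change of Col1a1 was 0.30 (standard error 0.142; 95% interval -0.02 to 0.62; adjusted p = 0.999, limma), and without Gfi1+/+ replicate 1 it was 0.13. Col3a1, the chain of the type III homotrimer found in soft connective tissue, had 26500, 33310 and 24720 normalized reads in the Gfi1+/+ libraries and 30452, 27950 and 29016 in the Gfi1Cre/+ libraries. Both its extremes were Gfi1+/+ libraries, and here replicate 3 rather than replicate 1 was the lowest. Per kilobase the means over 6 libraries were 7402 for Col1a2, 2920 for Col3a1 and 1656 for Col1a1.

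Type V collagen regulates the width of type I fibrils, and its 3 chains were present at very different levels. Col5a2 had 5787, 6659 and 6248 normalized reads in Gfi1+/+ and 6975, 6905 and 6630 in Gfi1Cre/+. The genotypes met only at 1 point, since Gfi1+/+ replicate 2 was above Gfi1Cre/+ replicate 3 and below the other Gfi1Cre/+ libraries. The log2 fold change was 0.14 (standard error 0.0648; 95% interval -0.01 to 0.28; adjusted p = 0.999, limma). Before adjustment, DESeq2 on the recovered reads put Col5a2 at 0.0478, and it was the 1 chain under 0.05 with that tool. Col5a1 had 1869, 2169 and 2369 normalized reads in the Gfi1+/+ libraries and 2063, 2165 and 2180 in the Gfi1Cre/+ libraries, with a log2 fold change of 0.01 (standard error 0.0833). Col5a3 had 194, 287 and 301 normalized reads in Gfi1+/+ and 276, 262 and 263 in Gfi1Cre/+, and Gfi1+/+ replicate 1 was the lowest library for each of the 3 type V chains. Per kilobase the means were 681 for Col5a2, 252 for Col5a1 and 38.7 for Col5a3. The other fibrillar chains, Col27a1 and Col24a1, had means of 654 and 301 per kilobase, and their log2 fold changes were 0.03 and 0.08.

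In the basement membrane class, the chains that every basement membrane shares stood above those of specialised ones. Col4a2 (ENSMUSG00000031503; chr8:11312805-11449287 of GRCm38) had 7638, 9970 and 9761 normalized reads in the Gfi1+/+ libraries and 8483, 9852 and 10215 in the Gfi1Cre/+ libraries. Col4a1, its partner in the common trimer, had 7694, 10102 and 9427 normalized reads in Gfi1+/+ and 8253, 10072 and 10575 in Gfi1Cre/+. In both, Gfi1+/+ replicate 1 and Gfi1Cre/+ replicate 1 were the 2 lowest libraries, and the genotypes overlapped. Mean levels per kilobase over the 6 libraries were 1408 for Col4a2 and 1253 for Col4a1, and the log2 fold changes were 0.07 (standard error 0.111) and 0.09 (standard error 0.119). Col18a1, whose product carries the endostatin fragment, had 5761, 6753 and 5853 normalized reads in the Gfi1+/+ libraries and 5614, 6181 and 6223 in the Gfi1Cre/+ libraries, and it was 1 of the 6 chains with a log2 fold change below 0, at -0.03 (standard error 0.0762). Col15a1, a related chain, had a log2 fold change of -0.04 and a narrow spread of 3826 to 4149 normalized reads over all 6 libraries.

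The Col4a3, Col4a4 and Col4a5 chains form the type IV trimer of mature cochlear and kidney basement membranes, the one affected in Alport syndrome. Col4a3 (ENSMUSG00000079465; chr1:82586921-82722059 of GRCm38) had 3977, 3305 and 6786 normalized reads in Gfi1+/+ and 4905, 5461 and 5472 in Gfi1Cre/+. The Gfi1Cre/+ libraries lay above Gfi1+/+ replicates 1 and 2 and below Gfi1+/+ replicate 3, which was the highest of all 6. Its log2 fold change was 0.24 (standard error 0.216; 95% interval -0.25 to 0.73; adjusted p = 0.999, limma). Without Gfi1+/+ replicate 3 the value was 0.54 with an adjusted p = 0.0391 (limma), and without Gfi1+/+ replicate 1 it was 0.15. Leaving out the highest Gfi1+/+ library raises the value by construction, so no difference is read from that call. Of all genes tested, 0.332% had an adjusted p under 0.05 without Gfi1+/+ replicate 3. Of the exonic bases of Col4a3, 5.65% also lie in exons of another gene. Col4a4, which starts 71 bases away on the other strand, had 1880, 2111 and 2797 normalized reads in the Gfi1+/+ libraries and 2326, 2451 and 2639 in the Gfi1Cre/+ libraries, again with the Gfi1Cre/+ libraries below Gfi1+/+ replicate 3 and above the remaining pair. Col4a5 (chrX:141475385-141689234 of GRCm38) had 3934, 4115 and 4372 normalized reads in Gfi1+/+ and 4317, 4646 and 4562 in Gfi1Cre/+. For this chain 2 Gfi1Cre/+ libraries were above every Gfi1+/+ library and the third lay below Gfi1+/+ replicate 3. Its log2 fold change was 0.12 (standard error 0.0600; 95% interval -0.01 to 0.26; adjusted p = 0.999, limma). Col4a6, the X-linked neighbour of Col4a5 and a chain of smooth muscle and epithelial basement membranes, had 259, 312 and 358 normalized reads in the Gfi1+/+ libraries and 304, 386 and 384 in the Gfi1Cre/+ libraries, with a log2 fold change of 0.21 (standard error 0.134). Since Col4a5 and Col4a6 lie on the X chromosome and the Y-linked genes separated the genotypes, sex and genotype cannot be told apart in their values either.

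The class of other chains held 17 genes, and the types VI, XVI and VIII led it. Col6a1, a chain of the beaded filaments of type VI collagen around cells and nerves, had 4307, 5341 and 4906 normalized reads in Gfi1+/+ and 5019, 5322 and 4920 in Gfi1Cre/+. Its partners were lower, with 454 normalized reads per kilobase for Col6a2 and 57.0 for Col6a3 against 1134 for Col6a1 in the mean of 6 libraries. Log2 fold changes were 0.07, 0.05 and 0.04 for Col6a1, Col6a2 and Col6a3, and the genotypes overlapped in each. Col16a1, a fibril-associated collagen, had 4044, 5755 and 5753 normalized reads in the Gfi1+/+ libraries and 5994, 6301 and 5705 in the Gfi1Cre/+ libraries. For this chain Gfi1+/+ replicate 1 was far below the other 5 libraries, which lay between 5705 and 6301. With all libraries the log2 fold change came to 0.23, with a standard error of 0.126 and an adjusted p = 0.999 (limma), and without Gfi1+/+ replicate 1 it came to 0.06. Col8a1 and Col8a2, the short chains of a network known from vessel walls and the cornea, had means of 754 and 520 normalized reads per kilobase and log2 fold changes of -0.01 and 0.07.

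The chain with the largest log2 fold change was Col22a1, a fibril-associated collagen of tissue junctions such as that of muscle and tendon. Col22a1 (ENSMUSG00000079022; chr15:71795795-72034227 of GRCm38) had 369, 393 and 749 normalized reads in Gfi1+/+ and 642, 729 and 642 in Gfi1Cre/+. The Gfi1+/+ libraries were split, with replicates 1 and 2 below all Gfi1Cre/+ libraries and replicate 3 above them. The log2 fold change was 0.49 (standard error 0.228; 95% interval -0.03 to 1.004) with an adjusted p = 0.999 in limma's test, and its unadjusted value of 0.0606 was the lowest of the 39 chains. Without Gfi1+/+ replicate 3 the value was 0.81 with an adjusted p = 0.00555 (limma), and without Gfi1+/+ replicate 1 it was 0.30 with no call. Gfi1+/+ replicate 3 held the highest Col22a1 value, so leaving it out raises the fold change by construction and no difference is read from that call. Without it, 0.332% of all genes tested had an adjusted p under 0.05. In Gfi1+/+ replicate 3 the 13 bone markers, none at 0, also had their highest sum, 56297 normalized reads against 34678 and 26945 in the other Gfi1+/+ libraries and 43949 to 47367 in the Gfi1Cre/+ libraries. Not every marker followed the sum. Spp1 had its lowest value of the 6 libraries there, at 9850, and Mepe and Phex were below Gfi1Cre/+ replicates 2 and 3. The part of the bone markers in the Col22a1 and Col4a3 values was not tested.

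Col14a1, Col12a1 and Col13a1, which were picked after their values were seen, also varied widely among the Gfi1+/+ mice. Col14a1, a fibril-associated collagen, had 1726, 2794 and 1310 normalized reads in the Gfi1+/+ libraries and 1802, 1824 and 1732 in the Gfi1Cre/+ libraries. Col12a1, of the same family, had 970, 1697 and 805 normalized reads in Gfi1+/+ and 1066, 1420 and 1141 in Gfi1Cre/+, so that for both chains Gfi1+/+ replicate 2 was the highest and replicate 3 the lowest of the 6 libraries. Col13a1, a transmembrane collagen, had 1249, 985 and 1838 normalized reads in the Gfi1+/+ libraries and 1355, 1258 and 1363 in the Gfi1Cre/+ libraries, with replicate 3 the highest and replicate 2 the lowest. The Gfi1Cre/+ libraries of all 3 chains lay between those extremes. At the low end, Col20a1, Col6a6 and Col28a1, also picked by their values, had means of 18.0, 7.69 and 4.86 normalized reads per kilobase. Col28a1 had 25.9, 16.8 and 21.1 normalized reads in Gfi1+/+ and 20.9, 17.8 and 40.6 in Gfi1Cre/+, and it entered the test only through Gfi1Cre/+ replicate 3, the 1 library in which it reached the minimum of 40. The remaining chains, Col7a1, Col23a1, Col25a1 and Col26a1, had log2 fold changes of 0.07 or less in size and mean levels of 25.0 to 404 normalized reads per kilobase.

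No collagen chain passed the test between the genotypes. All 39 chains were among the 14455 genes tested by limma on log2(normalized reads + 1), and 0 had a Benjamini-Hochberg adjusted p under 0.05, where 0.0277% of all genes tested did. The lowest adjusted p of a chain was 0.999. Before adjustment 0 of the 39 had p under 0.05, against 3.04% of all genes tested, and edgeR's quasi-likelihood test on the recovered reads also gave 0 while DESeq2 gave 1, Col5a2. In 0 of the 39 chains did the libraries of the genotypes fail to overlap, against 7.52% of all genes tested. The 95% interval of the log2 fold change lay within -0.5 to 0.5 for 30 chains and within -1 to 1 for 37. The chains whose interval passed 1 in size were Col22a1, with its upper bound at 1.004, and Col28a1, with an interval of -0.65 to 1.11. A p above the threshold does not show that the genotypes had equal levels, and the p-values measure the spread between single mice on 1 side and pools of 3 mice on the other.

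**Figure D2:**
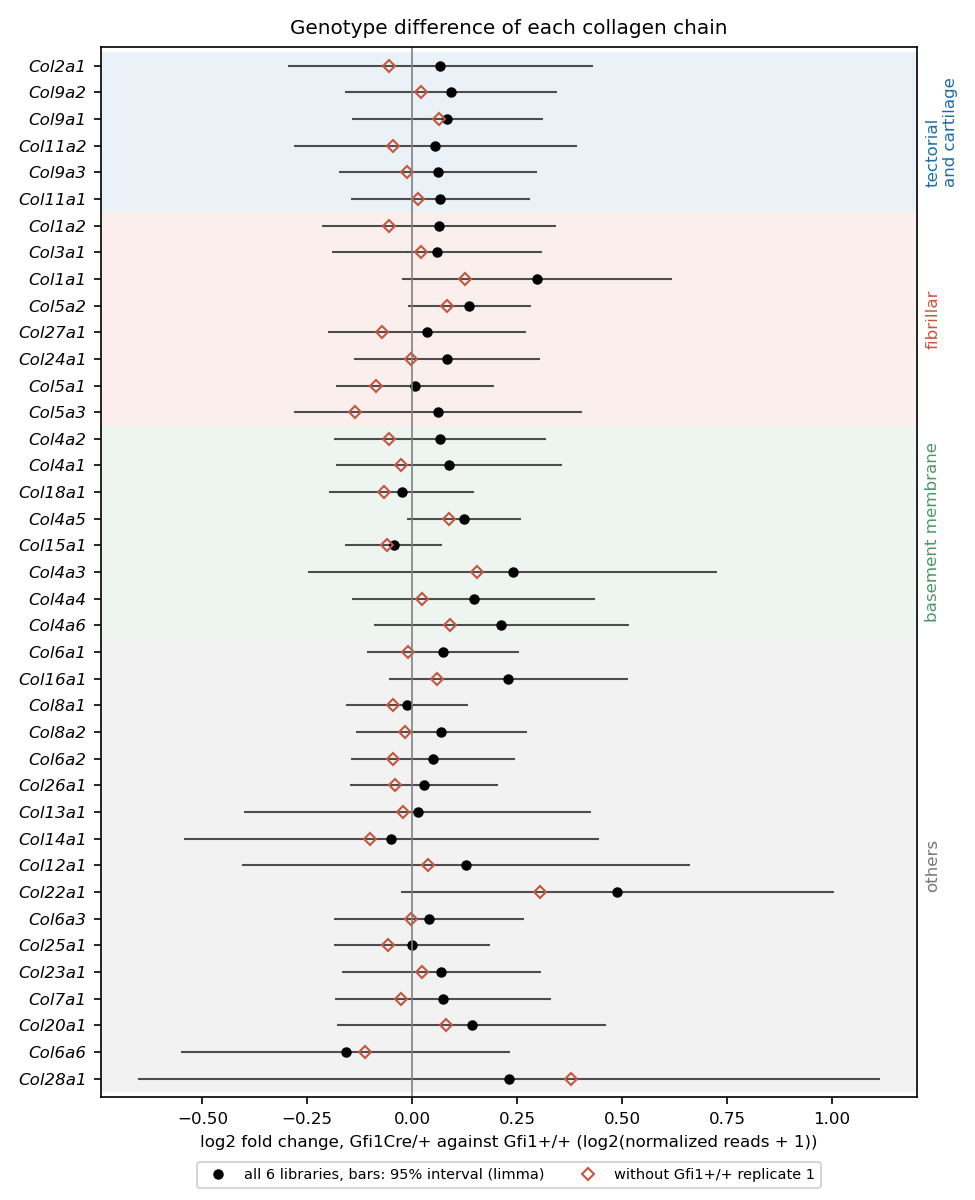
Log2 fold change of each collagen chain, Gfi1Cre/+ against Gfi1+/+, on the log2(normalized reads + 1) scale, with dots and 95% intervals from limma over all 6 libraries and diamonds for the fit without Gfi1+/+ replicate 1. Of the dots 33 of 39 are above 0 and every interval includes 0, and 16 of 39 diamonds are above 0.

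The direction of the small differences was shared by most chains, and it changed when 1 library, Gfi1+/+ replicate 1, was left out. Of the 39 chains 33 had a log2 fold change above 0, where 49.9% of all genes tested did, and the median was 0.07 against -0.00012 over all genes. All 8 fibrillar and all 6 tectorial and cartilage chains were above 0, as were 6 of 8 basement membrane chains and 13 of the 17 others. The class medians were 0.06 for fibrillar, 0.07 for tectorial and cartilage, 0.11 for basement membrane and 0.07 for the others. Without Gfi1+/+ replicate 1, 16 of the 39 chains were above 0 against 49.2% of all genes, and the median was -0.01. By class, 3 of 8 fibrillar, 3 of 6 tectorial and cartilage, 4 of 8 basement membrane and 6 of 17 other chains were then above 0. That library was the lowest in 27 of the 39 chains, so leaving it out lowers their fold changes by construction. Leaving out any other single library kept 30 to 35 chains above 0. No conclusion about the genotypes is read from either direction. The chains share their libraries, so their common direction is not 39 separate observations.

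Gfi1+/+ replicate 1 was the lowest of the 6 libraries in 27 of the 39 chains, or 69.2%, and the highest in 0. Over all genes tested it was the lowest in 23.5% and the highest in 24.9%. Its collagen values had a median deviation of -0.19 on the log2 scale from the mean of the 6 libraries, with class medians of -0.28 for basement membrane, -0.22 for fibrillar, -0.19 for tectorial and cartilage and -0.15 for the other chains. All 6 tectorial and cartilage chains and 7 of 8 fibrillar chains had their lowest value there. The neuron and Schwann cell marker sums given above had their highest value in the same library, and their part in its low collagen values was not tested. Gfi1+/+ replicate 3 was the highest library in 14 chains, 5 of them fibrillar and 4 tectorial and cartilage, and Gfi1+/+ replicate 2 in 10.

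**Figure D3:**
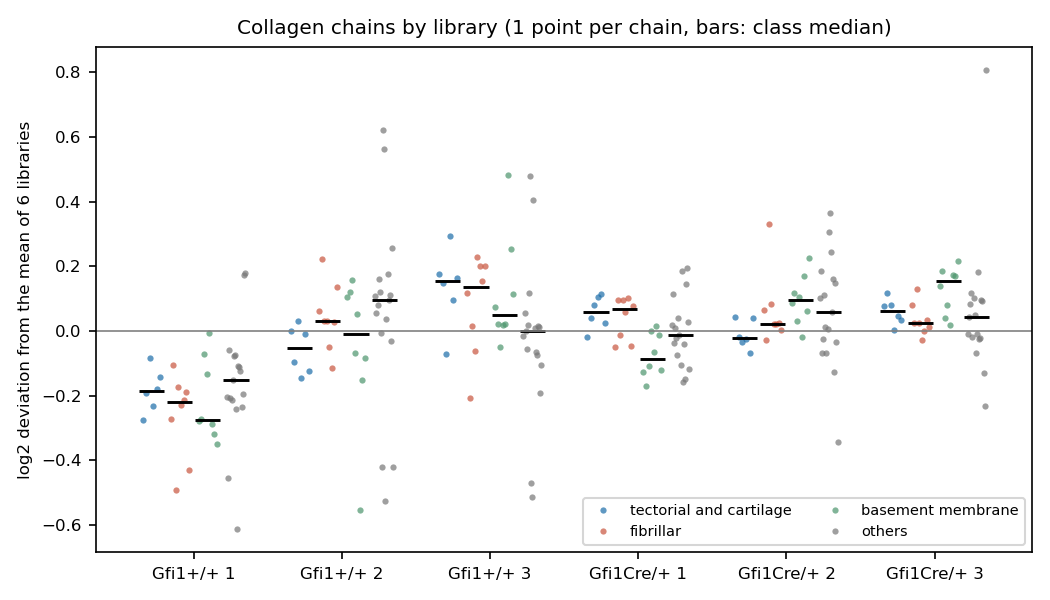
Deviation of each collagen chain from its mean over the 6 libraries, on the log2(normalized reads + 1) scale, by library and coloured by class, with 1 point per chain and a bar at each class median. All 4 class medians of Gfi1+/+ replicate 1 are below 0, between -0.28 and -0.15, and the points of the Gfi1+/+ libraries spread more widely than those of the Gfi1Cre/+ libraries.

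The spread between replicates was larger in Gfi1+/+ than in Gfi1Cre/+. On the log2(normalized reads + 1) scale, the 39 chains had a median SD of 0.204 in Gfi1+/+ and of 0.0734 in Gfi1Cre/+, where all genes tested had 0.119 and 0.0737. The Gfi1+/+ SD was the larger in 32 of the 39 chains, or 82.1%, and in 71.2% of all genes. All 3 Gfi1Cre/+ libraries lay inside the Gfi1+/+ range in 21 chains, or 53.8%, against 38.5% of all genes, and by class this was so in 6 of 8 fibrillar, 4 of 6 tectorial and cartilage, 2 of 8 basement membrane and 9 of 17 other chains. Genotype and the number of mice in a library cannot be told apart here.

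Ratios between partner chains do not depend on the size factors, so each was compared within its library. Of the 14 ratios computed, 1 had libraries of the genotypes that did not overlap, where the levels of 7.52% of all genes tested did not. A single such ratio among 14 is not read as a difference between the genotypes. Col1a2 to Col1a1, per kilobase, was 5.26, 4.61 and 4.84 in the Gfi1+/+ libraries and 4.40, 3.76 and 4.36 in the Gfi1Cre/+ libraries. Every Gfi1Cre/+ library lay below every Gfi1+/+ library, with means of 4.17 ± 0.364 and 4.90 ± 0.329 (SD, n = 3). The exact two-sided permutation test gave p = 0.1, the smallest that 3 libraries against 3 allow, and an adjusted p of 1 over the 14 ratios. With the longest transcripts as lengths the means were 8.76 in Gfi1Cre/+ and 10.3 in Gfi1+/+, so the size of this ratio depends on the length taken while its order between libraries does not.

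The head-to-head type IV pairs differed in how evenly their chains were represented. Col4a1 to Col4a2, the pair with overlapping first exons, had a ratio per kilobase between 0.856 and 0.918 in all 6 libraries. Col4a3 to Col4a4, with 71 bases between the starts, ran from 1.67 to 2.58. Col4a5 to Col4a6, with 1308 bases between the starts, ran from 14.1 to 18.0, and Col4a5 to Col4a3, partners in 1 trimer on different chromosomes, from 0.956 to 1.85. The widest range in proportion among the type IV ratios was thus that of Col4a5 to Col4a3, and its Gfi1Cre/+ libraries, at 1.24 to 1.31, lay inside the Gfi1+/+ range. These are ratios of transcript levels, which need not equal those of the proteins.

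In the cartilage class, Col9a1 to Col9a2 lay between 0.745 and 0.945 and Col9a3 to Col9a2 between 0.674 and 0.753, while Col11a2 to Col11a1 lay between 6.60 and 7.69. The type VI pair Col6a1 and Col6a2 had the smallest range in proportion of the 14 ratios, at 2.44 to 2.57. Against Col6a3, Col6a1 was between 18.1 and 22.5. The ratio of Col5a2 to Col5a1 was 2.33 to 2.99 and that of Col8a1 to Col8a2 was 1.38 to 1.61. Among the 13 ratios whose genotypes overlapped, the exact p-values were between 0.3 and 1.

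**Figure D4:**
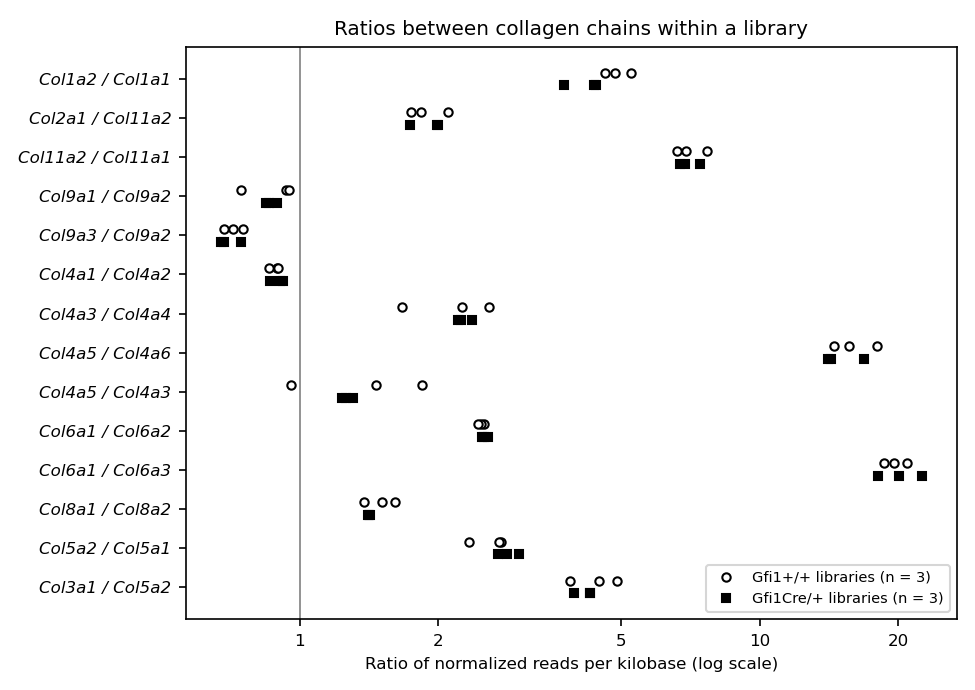
Ratio of normalized reads per kilobase between 2 collagen chains of the same library (log axis), with an open circle per Gfi1+/+ library and a filled square per Gfi1Cre/+ library (3 each) and a line at 1. Col1a2 to Col1a1 is the 1 ratio whose circles and squares do not overlap, and Col4a1 to Col4a2 stays between 0.856 and 0.918.

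The machinery that makes collagen was measured with the chains. Of 22 genes for collagen synthesis and folding, such as prolyl and lysyl hydroxylases and chaperones, 18 were higher and 4 lower in Gfi1Cre/+ (log2 fold change above or below 0). Over all genes tested 49.9% were higher. In this list 0 had p under 0.05 before adjustment, with a median log2 fold change of 0.05. The genotypes did not overlap in 1 of the 22, against 7.52% of all genes tested. Serpinh1, the collagen chaperone HSP47, had the highest level per kilobase of the list and 36662, 40122 and 35068 normalized reads in the Gfi1+/+ libraries and 39811, 37908 and 40634 in the Gfi1Cre/+ libraries. The genotypes overlapped, with a log2 fold change of 0.08 (standard error 0.0817). Without Gfi1+/+ replicate 1, 10 of the 22 genes were higher and 12 lower. The sum of this list was lowest in that library, at 99082 normalized reads. Leaving it out thus lowers the fold change of genes that were low there by construction, and no direction shared with the chains is read from it. Of 14 genes for propeptide cleavage and cross-linking, 10 were higher, 4 lower and 0 had p under 0.05. Loxl1, a member of the lysyl oxidase family, had the highest level per kilobase of the list and 5483, 6130 and 6873 normalized reads in Gfi1+/+ and 6328, 6248 and 6491 in Gfi1Cre/+. Its lowest and highest libraries were Gfi1+/+ replicates 1 and 3, and the genotypes overlapped. Without Gfi1+/+ replicate 1, in which the sum of this list was lowest too, 4 of the 14 were higher.

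Genes that bind or sense collagen showed no call either. Of 11 fibril-binding proteins 3 were higher and 8 lower, with 0 at p under 0.05 and a median log2 fold change of -0.04. Sparc, which binds collagen and calcium, led the list with 158596, 166436 and 199725 normalized reads in the Gfi1+/+ libraries and 187376, 184197 and 193656 in the Gfi1Cre/+ libraries. Its values followed the order of Col2a1 and Col11a2 in Gfi1+/+, lowest in replicate 1 and highest in replicate 3. Of 11 collagen receptors 10 were tested, 5 higher and 5 lower, with 0 at p under 0.05. Itgb1, the integrin subunit shared by the collagen-binding integrins, had 8026, 7918 and 7304 normalized reads in Gfi1+/+ and 7955, 7817 and 8056 in Gfi1Cre/+, and Mrc2, an endocytic receptor for collagen, had a log2 fold change of 0.11 (standard error 0.0841).

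Markers of tissues that make collagen, and of other cells of the cochlea, were counted in the same way. Over all genes tested, 49.9% were higher in Gfi1Cre/+ and 3.04% had p under 0.05 before adjustment (limma). Of the 13 bone markers 12 were higher in Gfi1Cre/+, and 3 had p under 0.05 before adjustment, Mepe, Spp1 and Phex, each with an adjusted p of 0.999 in limma's test. Without Gfi1+/+ replicate 3, 12 of the 13 had p under 0.05 before adjustment and 4 after it (limma), where 16.2% and 0.332% of all genes tested did. Their sum was highest in that library, so leaving it out raises the fold change of markers that were high there by construction. No difference between the genotypes is read from these calls. Without Gfi1+/+ replicate 1, 1 of the 13 had p under 0.05 before adjustment and 0 after it, against 2.1% and 0.0277% of all genes. Spp1, osteopontin, had 10161, 10606 and 9850 normalized reads in the Gfi1+/+ libraries and 11254, 11421 and 11051 in the Gfi1Cre/+ libraries. Its genotypes did not overlap, which was so in 7.52% of all genes tested. Of the 11 cartilage markers 9 were tested, 7 higher and 2 lower with 0 at p under 0.05. The 5 tectorial membrane glycoproteins were 3 higher and 2 lower, and the 5 otic fibrocyte markers 4 higher and 1 lower, both lists with 0 at p under 0.05. Of 7 endothelial markers 6 were higher, and Tek and Pecam1 had p under 0.05 before adjustment. Without Gfi1+/+ replicate 1, 5 of these 7 were higher and 0 had p under 0.05. Without Gfi1+/+ replicate 3, 6 were higher and 3 had p under 0.05. All 12 neuron markers were lower, 5 of them at p under 0.05 before adjustment, with a median log2 fold change of -1.003. Without Gfi1+/+ replicate 1, 11 were lower, 1 had p under 0.05 and the median was -0.45. Without Gfi1+/+ replicate 3 all 12 were lower, 10 had p under 0.05 and the median was -1.58, and in neither case was 1 called after adjustment. The 8 Schwann cell markers were 4 higher and 4 lower with 0 at p under 0.05, the 8 hair cell markers 2 higher and 6 lower with Pvalb at p under 0.05, and the 1 skeletal muscle marker tested was lower without a call. The 4 Y-linked genes were the genes with an adjusted p under 0.05 in limma's test of all 6 libraries, in these lists and in the whole table, where DESeq2 on the recovered reads called 10 genes.

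RefSeq promoter windows of 300 bases, 250 before a start site and 50 after it, were found for 30 of the 39 chains, in 33 windows. CCAAT, on either strand, was present in 33.3% of the 33 windows and in 37.4% of all 32851 windows of the table. GGGCGG, on either strand, was present in 63.6% against 35.7%, and TATAAA, on either strand, in 9.09% against 13.6%. None of the 3 motifs contains another. The 32851 windows belong to 27025 genes, many of them not among the 14865 listed here, so the shares are not matched for expression. Col2a1, the chain with the highest level, had no window, and neither did Col1a1, Col9a3 and Col4a3. No trait of collagen genes is read from these shares, which describe letters in the windows, and no binding was measured.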

How the data were processed

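RNA-seq of P8 cochlear ducts was analysed in 6 libraries, 3 Gfi1+/+ and 3 Gfi1Cre/+, whose columns were assigned through the genotype and replicate number in their names. Per the methods and the submitters' processing notes, the authors prepared TruSeq libraries, aligned reads to mm10 with TopHat, counted uniquely mapped reads with HTSeq with a minimum of 40 reads for a gene to be kept. Versions, annotation and strand setting are not given in the sources used here. The authors deposited a signal per gene and library that the methods call quantile-normalized, but 100% of the values in each library were whole multiples of 1 step (tolerance 0.02), that is, reads divided by a size factor of 0.810 to 1.15. The recovered read counts per library ran from 13603908 to 19359753. A count of 0 allows up to 3 reads, or 2.61 to 3.70 normalized reads, for counting error only.

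The deposited values were not normalized further. Of 14865 genes, the 14455 that reached 40 normalized reads in any library were tested with limma (version 3.58.1, R 4.3.3) on the log2(value + 1) scale. The model held genotype alone, with a trended eBayes prior, the test was two-sided, and p-values were adjusted over all genes tested by the Benjamini-Hochberg method. This scale understates changes of low genes. The steps were tested on simulated data. Ratios of chains were compared by exact permutation tests. The alternatives were pseudocounts of 0.1 and 10, no minimum, a minimum mean of 200, eBayes without its trend or with robust variances, cyclic loess, edgeR (version 4.0.16) and DESeq2 (version 1.42.0) on recovered reads, the replicate number as a block, and each library left out. The counts of chains with a higher mean and of lists without a library were added after the values were seen.

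Gene lengths and positions came from GENCODE vM21 (GRCm38), in which 14791 of 14865 identifiers matched, and promoters from RefSeq. The classes of chains and the gene lists were written from general knowledge. Members and lists were chosen with earlier results of these data known. The chains named are the 4 with the highest level per kilobase in each class, any with an unadjusted p under 0.05 or genotypes that do not overlap, the chain with the largest fold change, and partners in a trimer or promoter. Others named were picked after their values were seen. In each list at most 3 genes were named, by lowest p under 0.05 or else by level. Exceptions are the tectorial membrane glycoproteins, all 5 of which are named, and Coch, which is named as a tissue marker. Of 45 chains classified, 6 are not analysed here.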

Additional observations from a re-analysis of the deposited data

How the results depend on the processing

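No alternative applied to all 6 libraries gave a collagen chain an adjusted p under 0.05. The count at an unadjusted p under 0.05, 0 in limma's test, was 1 with DESeq2 (Col5a2). With the replicate number as a block it was 3, Col1a1, Col4a6 and Col22a1, whose unadjusted values were 0.00707, 0.0326 and 0.0412 and whose adjusted p was 0.999 (limma). The numbers are not known to pair the libraries, since same-numbered libraries had correlations of deviations of -0.0944, 0.107 and -0.0326.

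Leaving out 1 library at a time gave 0 to 13 chains at an unadjusted p under 0.05 and 0 to 2 at an adjusted p under 0.05, a median log2 fold change of -0.0129 to 0.125 and 16 to 35 chains higher in Gfi1Cre/+. The turn of the median, to -0.0129 with 16 chains higher, came without Gfi1+/+ replicate 1. The 13 and the 2 calls, Col22a1 and Col4a3, came without Gfi1+/+ replicate 3, where 16.2% of all genes tested had an unadjusted p under 0.05 and 48 genes an adjusted one. Without Gfi1+/+ replicate 2 there were 5 chains and without Gfi1Cre/+ replicate 1 there were 2. The cause was not tested. Over the 16 alternatives 579 of 621 chain values kept their sign. With a mean of at least 200, 36 chains were tested.

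With the longest transcript as length, 12 of 14 ratios and 3 of 4 class shares moved by more than the spread between libraries, and 0 did so when a library was left out. Precision is limited by 3 libraries per genotype and, for Col28a1, by few reads.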

Other observations

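The genes of both tectorins, noncollagenous proteins of the tectorial membrane, had another order among the Gfi1+/+ libraries than most chains of the tectorial and cartilage class. The reads of that class were not assigned to the tectorial membrane or to cartilage. Tecta, the alpha-tectorin gene, had 5506, 9628 and 3299 normalized reads in Gfi1+/+ and 4656, 7597 and 5031 in Gfi1Cre/+. Tectb, beta-tectorin, had 52717, 58321 and 35886 in Gfi1+/+ and 43706, 50855 and 45221 in Gfi1Cre/+. Both were lowest in Gfi1+/+ replicate 3 and highest in Gfi1+/+ replicate 2, whereas Col2a1, Col9a2, Col11a1 and Col11a2 were highest in Gfi1+/+ replicate 3 and lowest in replicate 1. The Gfi1Cre/+ libraries of Tecta and Tectb lay between the Gfi1+/+ extremes, with log2 fold changes of 0.01 (standard error 0.335) and -0.04 (standard error 0.166). Of the other 3 glycoproteins of this list, Otog had 7020, 6399 and 7414 normalized reads in Gfi1+/+ and Ceacam16 had 131, 82.7 and 166, both highest in replicate 3 and lowest in replicate 2, and Otogl had 1633, 1631 and 1515, lowest in replicate 3. The pattern was noticed after the values were seen and was not tested. Col3a1, Col12a1 and Col14a1 shared the order of Tecta in their extremes, with Gfi1+/+ replicate 2 highest and Gfi1+/+ replicate 3 lowest of the 6 libraries.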
